A study of Homo sapiens with 4 samples.

Results

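The genes that encode the proteins of the cytosolic ribosome were described in T24 cells with and without overexpression of miR-146a-5p. The family was chosen with earlier results of these data known. Its members were set by symbol: RPL or RPS with a number and at most the letter A or X. The stalk genes RPLP0, RPLP1 and RPLP2 and the small-subunit gene RPSA were added. This gave 77 genes of the 60623 in the table, 43 of the large subunit, 31 of the small subunit and 3 of the stalk. Pseudogenes and RPS6K kinases were outside the rule, and so was FAU, whose product is a ribosomal protein made as a fusion. All 77 members passed the filter on low counts.

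The cytosolic ribosome is built from a small subunit, which reads the mRNA, and a large subunit, which forms the peptide bond. Each subunit holds ribosomal RNA and one copy of most of its proteins, so the proteins are needed in matched amounts. Most of their mRNAs begin with a terminal oligopyrimidine tract, a C at the start site followed by further pyrimidines, through which their translation is controlled together by mTOR and LARP1. The genes are highly expressed in growing cells and have left many processed pseudogenes in the human genome.

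T24 is an established line of human bladder carcinoma cells. RNA was sequenced from 4 libraries, 2 of scramble control cells and 2 with miR-146a-5p overexpression. The study description says that a mimic was transfected and calls miR-146a-5p a tumor suppressor, whereas the sample labels name only the overexpression. The labels do not say whether replicates are separate cultures, and the p-values therefore reflect only how far these libraries differ, which may be technical spread. No dose and no time after transfection is given in the labels. In bulk RNA, a shift in the mixture of cell states and a change of RNA per cell cannot be told apart.

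Library totals lay between 20290055 and 22774090 estimated counts, and 20515 to 21266 genes were detected per library. Scramble replicate 2 had the highest total and the fewest detected genes. IRAK1, an established target of miR-146a, served as the check of the labels and had 498 and 716 counts per 1000000 counts of the library (CPM) in the scramble libraries against 108 and 109 in the miR-146a-5p libraries (adjusted p = 0.728 by edgeR and 5.03e-09 by DESeq2). The keratin and EPCAM list of epithelial markers summed to 3705 to 5646 CPM per library, although EPCAM itself stayed between 0.849 and 1.49 CPM. Summed markers of fibroblasts reached at most 6.21 CPM, those of leukocytes 1.8 CPM and those of endothelium 0.703 CPM, and the 3 erythroid markers were at 0 in all 4 libraries.

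The sequence of miR-146a-5p is shown because its seed decides which mRNAs it can pair with. The capitals mark the seed, bases 2 to 8 from the 5′ end. The mature sequence is 22 bases long and lies at chr5:160485372-160485393 on the plus strand of GRCh38.p14, from RefSeq.
hsa-miR-146a-5p: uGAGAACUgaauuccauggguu

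Start sites of 8 members are shown because the start of the transcript carries the feature that unites the family. Each window runs from 15 bases before to 15 bases after the start of transcription in RefSeq on GRCh38.p14, and the capitals mark the unbroken pyrimidine run that begins at the start site. The first 5 genes are stalk genes and members with large differences between the scramble libraries, and the last 3 are members with small or opposite differences. Their windows are at chr19:5690280-5690309 (RPL36, plus strand), chr15:69452803-69452832 (RPLP1, plus), chr11:809952-809981 (RPLP2, plus), chr12:120201097-120201126 (RPLP0, minus), chr14:49598696-49598725 (RPS29, minus), chr4:151099613-151099642 (RPS3A, plus), chr13:27251543-27251572 (RPL21, plus) and chr1:6199581-6199610 (RPL22, minus).
RPL36: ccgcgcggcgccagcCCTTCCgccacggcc
RPLP1: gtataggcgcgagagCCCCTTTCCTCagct
RPLP2: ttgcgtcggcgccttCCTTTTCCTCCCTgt
RPLP0: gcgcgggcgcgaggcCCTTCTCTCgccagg
RPS29: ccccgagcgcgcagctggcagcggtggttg
RPS3A: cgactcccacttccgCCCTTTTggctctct
RPL21: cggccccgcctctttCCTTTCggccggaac
RPL22: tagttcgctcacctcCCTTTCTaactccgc

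Of these 8 genes, 7 begin with a pyrimidine run of 6 to 13 bases, and the annotated RPS29 start has none. A promoter entry existed for 62 of the 77 members. On the transcribed strand, a C opening a run of at least 5 pyrimidines stood exactly at the start in 46 members (74.2%) and in 5.14% of the 27305 genes with an entry. Such a run began within 10 bases of the start in 57 members (91.9%) and in 38.4% of all genes. RPS3A and RPL21 carry the run although their levels differed between libraries unlike those of RPL36 or RPLP1. The 46 genes with the run at the start had a median log2 difference between the scramble libraries of 0.371, and the 16 without it had 0.332. These matches describe the annotated letters only.

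The family took up a large and library-dependent share of the RNA. The 77 genes summed to 71659 CPM in scramble replicate 1 and 90623 CPM in scramble replicate 2, or 7.17% and 9.06% of all counts. In the miR-146a-5p libraries the sum was 77293 CPM in replicate 1 and 72185 CPM in replicate 2. By CPM, both miR-146a-5p libraries therefore lay between the scramble libraries, and the scramble pair was the wider one. The scramble mean was 81141 ± 13410 CPM (SD, n = 2) and the miR-146a-5p mean was 74739 ± 3611 CPM (SD, n = 2), a log2 difference of -0.12. An exact two-sided permutation test over the 4 libraries gave p = 1, and the smallest p this design allows is 0.333. Taken against each scramble library separately, the miR-146a-5p mean was 0.061 higher on the log2 scale than scramble replicate 1 and differed by -0.28 from scramble replicate 2. With DESeq2 size factors these differences were 0.017 and -0.26, and the sum of miR-146a-5p replicate 2 was then below that of scramble replicate 1.

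The same order of the scramble libraries held for each class of protein. Large-subunit genes summed to 42097 CPM in scramble replicate 1, 52305 in scramble replicate 2, 45477 in miR-146a-5p replicate 1 and 42365 in miR-146a-5p replicate 2. Small-subunit genes gave 25992, 33390, 28092 and 26412 CPM in the same order. The stalk genes, whose products recruit the translation factors to the ribosome, gave 3570, 4928, 3723 and 3409 CPM. In every class scramble replicate 2 was the highest library and exceeded both miR-146a-5p libraries.

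The authors' TPM (transcript abundance adjusted for length) gave a narrower range. The members summed to 222370 TPM in scramble replicate 1, 239846 in scramble replicate 2, 232379 in miR-146a-5p replicate 1 and 219879 in miR-146a-5p replicate 2. Scramble replicate 2 stayed the highest of the 4, while miR-146a-5p replicate 2 fell outside the scramble range. On this scale the miR-146a-5p mean differed by 0.024 (log2) from scramble replicate 1 and by -0.085 from scramble replicate 2.

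**Figure D1:**
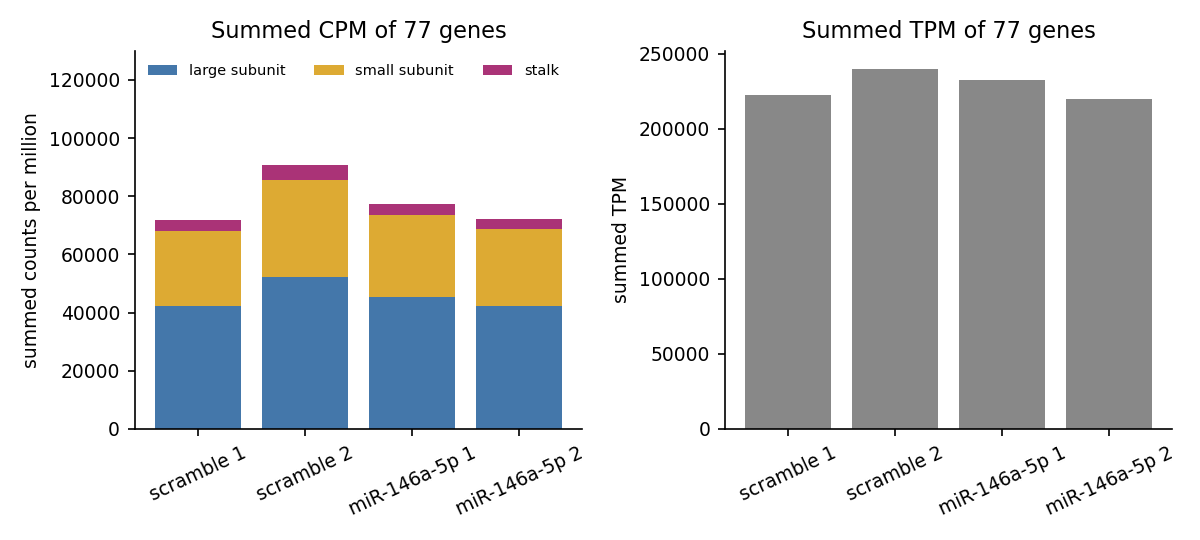
Summed level of the 77 cytosolic ribosomal protein genes in each library, as CPM stacked by class (left) and as the authors' TPM (right); each bar is 1 library and both axes start at 0. Scramble replicate 2 is the highest bar in both panels, at 90623 CPM and 239846 TPM.

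Member levels can be compared with one another on the TPM scale, which accounts for length. The highest mean was that of RPL41, which encodes a very short large-subunit peptide, with 8663 and 9189 TPM in the scramble libraries and 9109 and 8737 TPM in the miR-146a-5p libraries. RPS27, which encodes a zinc-finger protein of the small subunit, followed with 7836, 8572, 8994 and 8613 TPM. RPL10, a late-joining protein of the large subunit, had 8019, 8162, 8388 and 7820 TPM. RPL41 exceeded RPL10 in every library, whereas the range of RPS27 overlapped with both. RPL39, which lines the peptide exit tunnel, had a mean of 7295 TPM, and RPL36A and RPS2 had means of 6069 and 6006 TPM. RPL39 overlapped with RPL10 at its upper end, and the ranges of RPL36A and RPS2 overlapped too.

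At the other end, RPL9 had 104 to 119 TPM, RPS28 395 to 540 TPM and RPS26, a protein near the mRNA exit channel, 530 to 579 TPM. RPL9 stood clear of the next member in every library, whereas RPS28 and RPS26 overlapped. The median member had a mean of 2459 TPM. RPL9 and RPS26 are both genes whose pseudogene copies carried many of the counts, as given further on, so their low values hold for the annotated parent gene only.

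The direction of the comparison between miR-146a-5p and scramble depended on the scramble library used. With all 4 libraries, edgeR's quasi-likelihood test called no member at an adjusted p of 0.05, and it called 0.00% of the 14810 genes tested. No member had an unadjusted p under 0.05, against 549 of all genes. The smallest member p was 0.189, for RPS16, and the smallest adjusted p was 0.97. DESeq2 also called no member, and it called 52 genes in all, which is 0.324% of the 16044 it tested. Fitted log2 fold changes of the members ran from -0.41 to 0.24 with a median of -0.12, 68 of them negative and 9 positive, beside a median of -0.0014 over all tested genes. In the authors' deposited table, 0 members were marked as significant, the fold was below 1 for 70 members and above 1 for 7, and the extremes were 0.747 for RPL13 and 1.16 for RPL7.

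Few members separated the groups. Both miR-146a-5p libraries lay above both scramble libraries for 3 members, RPL7, RPS3A and RPL21, where 18.0% of all tested genes did so. Both lay below for 4 members, RPL5, RPL6, RPS13 and RPS26, against 18.0% of all tested genes. With 77 members these counts are 3.90% and 5.19%, well under the background. With DESeq2 size factors in place of library totals, the counts became 0 above and 11 below, beside 16.6% and 21.0% of tested genes. With the authors' TPM they became 8 and 14, beside 18.8% and 19.1%. The 8 were RPL36A, RPL37A, RPL39, RPS15A, RPS24, RPS25, RPS27 and RPS27A. None of RPL7, RPS3A and RPL21 was among those 8, and of the 4 lower members RPL5, RPS13 and RPS26 were still separated by TPM but RPL6 was not.

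Scramble replicate 2 stood apart from the other 3 libraries for nearly the whole family. It exceeded scramble replicate 1 in 73 of 77 members under each of the 3 scalings tried, where 55.4% of all tested genes did by CPM. It was the highest of the 4 libraries in 71 members (92.2%), against 42.1% of tested genes, and the lowest in 4, against 37.0%. With TMM factors or DESeq2 size factors it was the highest in 70. The median log2 difference, scramble replicate 2 minus scramble replicate 1, was 0.38 in the members and 0.10 over all tested genes. It was 0.33 in the large subunit, 0.39 in the small subunit and 0.59 in the stalk. The 4 members that were lower in scramble replicate 2 were RPL7, RPS3A, RPL23A and RPL21.

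**Figure D2:**
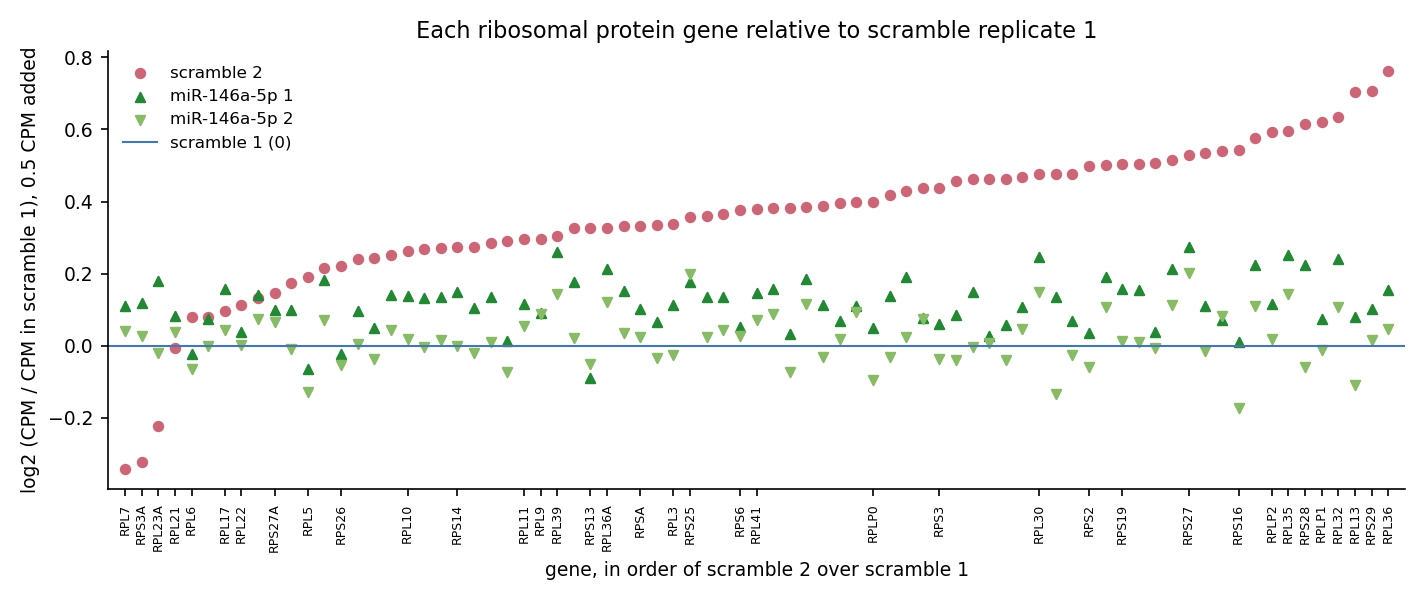
Log2 ratio of CPM in scramble replicate 2 and in both miR-146a-5p libraries to CPM in scramble replicate 1 (line at 0), with 0.5 CPM added, for each of the 77 genes, ordered by scramble replicate 2, with the symbols of genes chosen by the naming rule. The points of scramble replicate 2 run from -0.34 for RPL7 to 0.76 for RPL36, and the miR-146a-5p points lie closer to the line for most genes, with RPL21 and RPL17 among the exceptions.

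Against scramble replicate 1, the miR-146a-5p libraries were close to level. The median log2 difference of the members was 0.074, with extremes of -0.096 for RPL5 and 0.24 for RPS27, beside 0.0040 over all tested genes. Both miR-146a-5p libraries were above scramble replicate 1 in 46 members, against 40.8% of tested genes, and below it in 4, against 40.9%. With TMM factors 41 members were above and 4 below, beside 40.4% and 41.1% of tested genes. With DESeq2 size factors 21 members were above and 11 below, beside 34.9% and 46.6%, so whether the members exceeded the background share of genes above scramble replicate 1 depended on the scaling. Against scramble replicate 2 the median was -0.29, beside -0.0070 over all tested genes. Both miR-146a-5p libraries were below scramble replicate 2 in 71 members, against 45.6% of tested genes, and above it in 4, against 44.6%. Both comparisons use the same miR-146a-5p libraries.

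**Figure D3:**
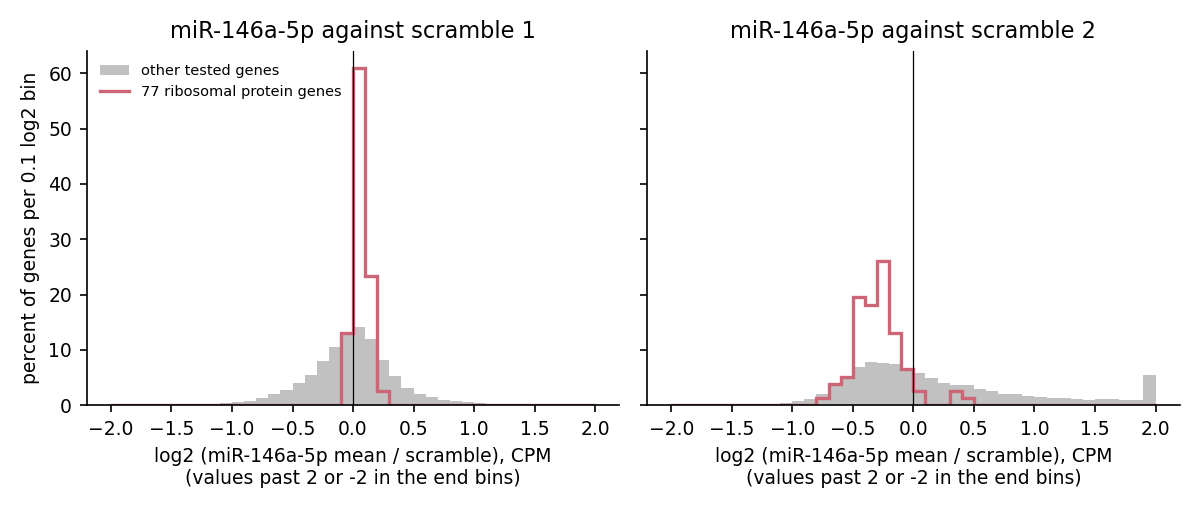
Share of genes per bin of the log2 ratio of the miR-146a-5p mean to scramble replicate 1 (left) and to scramble replicate 2 (right), for the 77 ribosomal protein genes (line) and the other tested genes (grey). The members gather around a median of 0.074 on the left and -0.29 on the right.

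Fits with a single scramble library take their spread from the miR-146a-5p pair alone and leave out the gap between the scramble libraries. Their calls therefore do not test the groups and are given as description only. Without scramble replicate 1, edgeR called 58 members, 55 lower and 3 higher, where 26.4% of all tested genes were called lower and 28.5% higher. The 3 higher members were RPL7, RPS3A and RPL23A. Without scramble replicate 2, a single member was called, RPS27, which was higher by 0.25 ± 0.095 (SE, log2, adjusted p = 0.0394 by edgeR). In that fit 10.1% of all tested genes were called higher and 11.7% lower, and the members' median was 0.087 in place of -0.29. Leaving out a miR-146a-5p library gave no called member.

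The stalk genes show how the levels lay. RPLP0, the stalk's base, had 2524 and 3331 CPM in the scramble libraries and 2612 and 2364 CPM in the miR-146a-5p libraries. RPLP1 had 680 and 1046 CPM against 716 and 675 CPM, and RPLP2 had 366 and 552 CPM against 396 and 370 CPM. In each of the 3 genes scramble replicate 2 was high and the other 3 libraries lay close together, so the groups overlapped. The fitted log2 fold changes were -0.24 ± 0.18 for RPLP0, -0.31 ± 0.25 for RPLP1 and -0.26 ± 0.25 for RPLP2 (SE, 4 libraries), each with an adjusted p by edgeR of at least 0.97.

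Among the large-subunit genes, RPL36 had the largest log2 difference between the scramble libraries, 0.76, with 201 and 341 CPM against 223 and 207 CPM in the miR-146a-5p libraries. RPL13 had 1294 and 2109 CPM against 1368 and 1199 CPM, and its fitted log2 fold change of -0.41 ± 0.28 (SE) was the lowest of the family, and it was -0.23 when trends with coding GC content and length were removed. RPL32 had 668 and 1037 CPM against 789 and 719 CPM. For all 3 genes scramble replicate 2 alone was high. Without scramble replicate 2, the log2 fold change of RPL13 was 0.0012 and that of RPL36 was 0.11.

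RPL5 and RPL11 join the 5S ribosomal RNA in a particle that can also bind MDM2, the ligase that holds p53 down. RPL5 had 1231 and 1404 CPM in the scramble libraries and 1177 and 1126 CPM in the miR-146a-5p libraries, so the groups did not overlap. Its fitted log2 fold change was -0.20 ± 0.14 (SE, adjusted p = 0.97 by edgeR), and it was -0.49, the lowest of the family, when coding GC and length trends were removed. RPL11 had 735 and 902 CPM against 797 and 763 CPM, with the miR-146a-5p libraries between the scramble ones. RPL6 had 1413 and 1492 CPM against 1390 and 1350.2 CPM, a separation by CPM but not by TPM, with a fitted log2 fold change of -0.085 ± 0.12. RPL3, which lies near the peptidyl transferase centre, had 1802 and 2279 CPM against 1951 and 1772 CPM, and RPL10 had 2642 and 3172 CPM against 2907 and 2675 CPM.

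RPL7 had the most negative log2 difference of the family between scramble replicate 2 and scramble replicate 1. It had 2438 and 1923 CPM in the scramble libraries and 2629 and 2506 CPM in the miR-146a-5p libraries. Both miR-146a-5p libraries were above both scramble libraries, but the gap within the scramble pair was wider than the gap between the upper scramble library and the miR-146a-5p libraries. The fitted log2 fold change was 0.23 ± 0.17 (SE, adjusted p = 0.97 by edgeR), the highest of the family, and it was -0.042 when coding GC and length trends were removed. RPL22 had 663 and 718 CPM against 681 and 665 CPM, a narrow range in all 4 libraries. RPL17 had 1059 and 1131 CPM against 1182 and 1091 CPM, and RPL36A had 783 and 981 CPM against 907 and 851 CPM. By CPM, only for RPL17 among these 3 genes was a miR-146a-5p library the highest of all, and by TPM also for RPL36A. RPL39 had 711 and 879 CPM against 852 and 786 CPM, and RPL41 had 1436 and 1869 CPM against 1591 and 1509 CPM. RPL30 had 786 and 1094 CPM against 932 and 872 CPM, and RPL35 had 797 and 1205 CPM against 948 and 881 CPM. By CPM these 4 genes had the miR-146a-5p libraries inside the scramble range, whereas by TPM both lay above it for RPL39.

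In the small subunit, RPS16 had the smallest p of the family, with 457 and 667 CPM in the scramble libraries and 461 and 405 CPM in the miR-146a-5p libraries. Its fitted log2 fold change was -0.38 ± 0.24 (SE). RPS29, a small zinc-binding protein, had 125 and 204 CPM against 134 and 126 CPM. RPS28 had 122 and 188 CPM against 143 and 117 CPM. RPS2, which lies at the mRNA entry channel, had 3201 and 4524 CPM against 3281 and 3073 CPM. By CPM, scramble replicate 2 again stood above the other libraries in these 4 genes. Scramble replicate 1 was within the range of the miR-146a-5p pair or close to it. By TPM, RPS28 alone of the 4 was not highest in scramble replicate 2, with 454 and 442 against 540 and 395 TPM.

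RPS6, the substrate of the S6 kinases downstream of mTOR, had 1058 and 1373 CPM in the scramble libraries and 1098 and 1079 CPM in the miR-146a-5p libraries. RPS14, whose loss is known from 5q deletion syndrome, had 658 and 796 CPM against 729.57 and 658 CPM. RPS19, mutated in Diamond-Blackfan anemia, had 387 and 548 CPM against 431 and 390.2 CPM. The groups overlapped for RPS6 and RPS19, and for RPS14 the second miR-146a-5p library matched scramble replicate 1. RPS3, a protein of the mRNA entry channel, had 1451 and 1966 CPM against 1513 and 1413 CPM. RPSA, also known as the laminin receptor precursor, had 1990.3 and 2505 CPM against 2138 and 2022 CPM. RPS27A, made as a fusion with ubiquitin, had 717 and 794 CPM against 767 and 750.2 CPM. In each of these 3, scramble replicate 2 was again the highest library by CPM. By TPM that held for RPS3 and RPSA, whereas RPS27A was lowest in scramble replicate 2. It had 2260 and 2161 TPM in the scramble libraries against 2297 and 2303 TPM.

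Some small-subunit members were different. RPS3A had 943 and 754 CPM in the scramble libraries and 1025 and 962 CPM in the miR-146a-5p libraries, the same order as RPL7, with a fitted log2 fold change of 0.23 ± 0.17 (SE), which was -0.11 when coding GC and length trends were removed. RPS13 had 376 and 472 CPM against 354 and 363 CPM, and RPS26 had 177 and 206 CPM against 174 and 170.1 CPM. Both RPS13 and RPS26 were lower in both miR-146a-5p libraries, by less than the scramble libraries differed. RPS27 had 587 and 846 CPM against 709.98 and 675 CPM, so both miR-146a-5p libraries lay well above scramble replicate 1 and below scramble replicate 2. By TPM both were above both scramble libraries. RPS25, needed for initiation at some internal ribosome entry sites, had 549.65 and 704 CPM against 621 and 631 CPM, and it was one of 3 members that were not lower in miR-146a-5p replicate 2 than in replicate 1.

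The miR-146a-5p replicates also differed as a family, over a smaller distance. Replicate 2 was below replicate 1 in 74 members, against 45.5% of tested genes, and the exceptions were RPL38, RPS13 and RPS25. The median log2 difference was -0.096 in the members and 0.019 over all tested genes. It was thus about as large as the median difference of 0.074 between the miR-146a-5p mean and scramble replicate 1.

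The gap between the scramble libraries followed base composition. Across the 77 members, the log2 difference of scramble replicate 2 minus scramble replicate 1 had a Pearson r of 0.591 and a Spearman rho of 0.608 with the GC content of the coding sequence. Across 12449 tested genes with a coding sequence the values were 0.686 and 0.767. These are correlations across genes that share 2 libraries, and genes are not independent replicates. Members with 40 to 45% GC (n = 10) had a median difference of 0.14, and those with 60 to 65% (n = 7) had 0.499. RPL7 and RPS3A have 43.4% and 42.7% GC in their coding sequences, and RPL36 and RPL13 have 59.7% and 62.2%. The part of base composition in the family's difference was not tested.

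At low GC, the members' median lay above that of other genes of like composition. Other tested genes with 40 to 45% GC had a median of -1.07, and those with a coding sequence under 600 bases, as in 55 of the 77 members, had -0.183. At 45 to 50% the members' median was 0.326 against 0.106 in the other short genes, and at 50 to 55% it was 0.382 against 0.291. At 55 to 60% it was 0.507 against 0.417, and at 60 to 65% 0.499 against 0.514. The members' median was above that of the other short genes in each bin except the last, where it was below, and no test of these gaps was made. The difference between the miR-146a-5p mean and scramble replicate 1 had an r of -0.161 with GC in the members and of 0.222 over all tested genes. Against scramble replicate 2 these values were -0.634 and -0.661. For the difference between the miR-146a-5p replicates they were -0.59 and -0.187. Coding length was less closely related than GC to the scramble gap, with an r of -0.286 in the members. With the difference between the miR-146a-5p mean and scramble replicate 1, coding length had an r of -0.423 in the members and -0.149 over all tested genes.

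**Figure D4:**
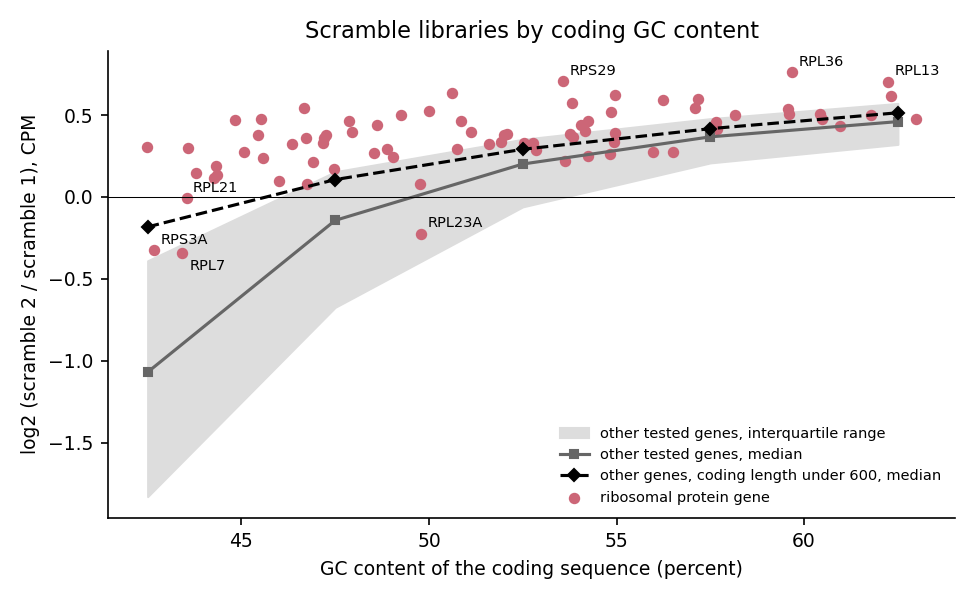
Log2 ratio of CPM in scramble replicate 2 to scramble replicate 1 against the GC content of the coding sequence, for the 77 members (points), with the median and interquartile range of other tested genes (grey) and the median of other genes with a coding length under 600 bases (dashed) per 5% bin. The members' median is 0.14 at 40 to 45% GC and 0.499 at 60 to 65%.

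CPM and TPM did not order the scramble libraries alike for every member. Scramble replicate 2 exceeded scramble replicate 1 in 57 members by TPM, against 45.4% of tested genes. It was the highest library in 47, against 30.7%, and the lowest in 15, against 42.5%. A total of 16 members were higher in scramble replicate 2 by CPM and lower by TPM, among them RPL5, RPL6, RPS6 and RPS28. RPL7 and RPS3A were lower in scramble replicate 2 on both scales, with log2 differences of -0.34 and -0.32 by CPM and of -0.72 and -0.54 by TPM. The members' median difference was 0.12 by TPM and -0.061 over all tested genes. The CPM difference exceeded the TPM difference in every member, by 0.074 to 0.66, with the widest gap for RPS28. The effective lengths behind the TPM are not given in the sources used here.

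Pseudogene copies held a sizeable part of the counts for a few members. The table holds 2226 pseudogenes assigned to members by their symbol or deposited description, and each member had at least 1. Counts were fractional in at least 1 library for 60 members and whole (within 0.005) for 17, as happens where reads are divided among genes or transcripts. Copies made up over 5% of the joint counts for 7 members. The shares were 81.2% for RPL9, 51.2% for RPL23A, 32.3% for RPS26, 20.5% for RPL36A, 17.5% for RPL21, 5.71% for RPS2 and 5.29% for RPSA.

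RPL23A, which sits at the exit of the peptide tunnel, shows what the copies change. The gene alone had 438 and 375 CPM in the scramble libraries and 496 and 432 CPM in the miR-146a-5p libraries. Its copy RPL23AP42 had 385 and 462 CPM in the scramble libraries and 420.1 and 424 CPM in the miR-146a-5p libraries, so the parent was lower and the copy higher in scramble replicate 2. Gene and copies together gave 856 and 865 CPM against 950.31 and 893 CPM, and the log2 difference between the scramble libraries moved from -0.22 to 0.015. RPL21 alone had 801 and 798 CPM against 849 and 823 CPM. With its copies it had 930.04 and 1039 CPM against 1017 and 979 CPM, and the groups then overlapped.

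For RPL7 and RPS3A the copies held 0.0987% and 0.0862% of the joint counts, and the log2 differences between the scramble libraries stayed at -0.34 and -0.32. With copies added, 75 of 77 members were higher in scramble replicate 2, and RPL7 and RPS3A were the exceptions. RPL9 had 50.3 and 61.9 CPM in the scramble libraries and 53.7 and 53.6 CPM in the miR-146a-5p libraries, while its copy AC243919.1 had 207, 271, 241 and 229 CPM in the same order. Which of them the reads came from cannot be told apart with these counts.

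**Figure D5:**
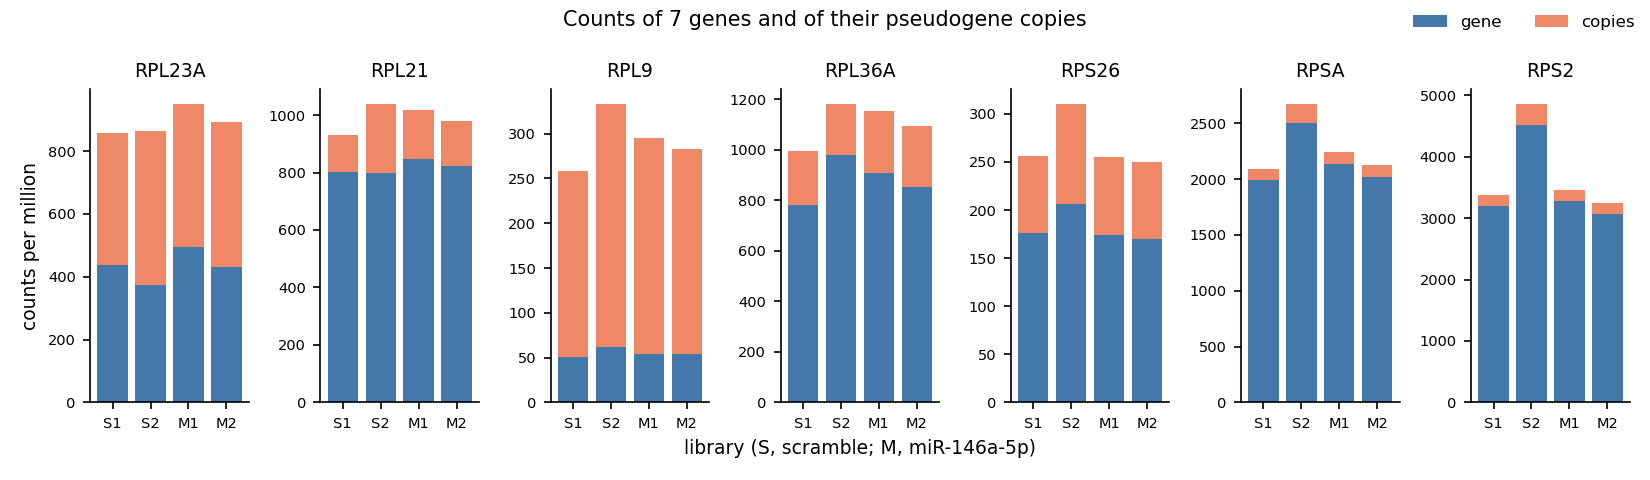
CPM of 7 ribosomal protein genes (blue) and of their pseudogene copies (orange) in each library, with S1 and S2 for the scramble and M1 and M2 for the miR-146a-5p replicates; bars start at 0 and each panel has its own scale. In RPL23A the gene is lowest in S2 at 375 CPM, while gene and copies together give 865 CPM there and 856 CPM in S1.

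Matches to the seed of miR-146a-5p were counted in the members and in all tested genes. The 7-letter sites AGTTCTC and GTTCTCA, which overlap by 6 letters, were searched on the mRNA strand of the annotated 3′ UTRs. At least 1 of them was present in 14 of the 77 members (18.2%) and in 22.7% of 12376 tested genes. The difference was not tested, and the length of the 3′ UTRs was not taken into account. RPL10, RPS29 and RPS3 were among the members with a match. The median edgeR log2 fold change of the 14 was -0.093, against -0.13 in the 63 members without a match. Against scramble replicate 1 alone the medians were 0.063 and 0.075.

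Other genes of the ribosome and of translation were read in the same fits, and neither edgeR nor DESeq2 called any gene of these lists with 4 libraries. The ribosomal fusion gene FAU and the scaffold gene RACK1 were each highest in scramble replicate 2. RACK1 had 1232 and 1756 CPM in the scramble libraries and 1256 and 1126 CPM in the miR-146a-5p libraries, and FAU had 252 and 343 CPM against 296 and 283 CPM. Of the 8 paralogs of ribosomal protein genes, 6 were tested and their median log2 fold change was -0.023. RPL39L had 13.2 and 21.6 CPM against 15.4 and 13.9 CPM, and RPS27L, a p53-responsive paralog, had 27.9 and 32.0 CPM against 31.1 and 35.7 CPM.

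Genes of mitochondrial ribosomal proteins, which build a separate ribosome, had medians close to those of the cytosolic family. Of the 79 genes, 62 were higher in scramble replicate 2, with a median log2 difference of 0.347, beside 0.38 in the cytosolic members. Against scramble replicate 1 the median of the miR-146a-5p mean was 0.073, beside 0.074. MRPL33, named for the smallest p of this list, had 23 and 25.5 CPM in the scramble libraries and 45.5 and 48.9 CPM in the miR-146a-5p libraries. Its groups did not overlap, and its log2 fold change was 0.96 ± 0.20 (SE), but the adjusted p was 0.97 by edgeR and 0.403 by DESeq2. MRPS12 had 4.48 and 10.1 CPM against 3.63 and 3.08 CPM.

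The list of 19 translation factors and other transcripts with a terminal oligopyrimidine tract had a smaller median difference between the scramble libraries, 0.118. Its median against scramble replicate 1 was -0.12, of the opposite sign to that of the ribosomal protein genes. PABPC1, the poly(A)-binding protein, had 2058 and 2281 CPM in the scramble libraries and 1640 and 1716 CPM in the miR-146a-5p libraries. EEF2, the elongation factor of translocation, had 2038 and 2946 CPM against 1797 and 1684 CPM. Both were named for the smallest p of this list. Both separated the groups, with log2 fold changes of -0.37 ± 0.13 and -0.52 ± 0.22 (SE) and an adjusted p of 0.97 by edgeR for each.

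Among 43 genes of ribosome assembly and ribosomal RNA synthesis, the median log2 fold change was -0.15, and it was -0.051 against scramble replicate 1. RRP12 had 133 and 176 CPM in the scramble libraries and 102 and 108 CPM in the miR-146a-5p libraries, and BOP1, a large-subunit assembly factor, had 147 and 238 CPM against 120.3 and 116 CPM. The 12 regulators of these transcripts had a median of -0.17. LARP1, which binds the tract, had 389 and 476 CPM against 346 and 363 CPM, and EIF4EBP2, an mTOR substrate that restrains cap-dependent translation, had 108 and 125 CPM against 87.6 and 98.0 CPM. These 4 genes had both miR-146a-5p libraries below both scramble libraries, and none had an unadjusted p under 0.05. They were named for the smallest p of their lists, so their separation does not describe the lists.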

How the data were processed

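Per the submitters' processing notes, the authors used cutadapt 1.9.1, HISAT2 2.0.1, HTSeq 0.6.1, DESeq2 (no version given) and the build hg19. The annotation release and the tool behind fractional values are not given in the sources used here. Estimated counts and TPM per library stand in the deposited table, per the file headers. The authors' fold change has the scramble libraries below the line, and its log2 is listed beside it. Their DESeq2 run gave the deposited p-value and its adjusted form, per the file headers.

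Estimated counts were rounded and tested with edgeR 4.0.16 (quasi-likelihood, TMM, group only, two-sided, R 4.3.3), after filterByExpr (minimum count 10, minimum total 15), with Benjamini-Hochberg adjustment over 14810 genes at 0.05. CPM is the estimated count per 1000000 of the library total, and log2 ratios of CPM and TPM had 0.5 added. DESeq2 1.42.0 and limma 3.58.1 (voom) were alternatives. The edgeR, DESeq2 and limma-voom fits were also run on simulated counts with known changes and a single spread for all genes. No gap within the scramble pair was simulated, and fits with a library left out were not run there. GENCODE 29 gave the coding sequences and 3′ UTRs by gene ID, and copies were pseudogenes assigned to a member by symbol or by deposited description.

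Members, lists and alternatives were chosen with earlier results of these data known. Genes were named by rule: the 5 smallest p, the 5 extremes in each direction against each scramble library and between the scramble libraries, the 6 highest and 3 lowest TPM, 16 fixed members, members separated upwards, and the 2 smallest p per related list. Genes named after their values were seen are members listed beside small counts or seed matches, the copies, EPCAM and FAU. Values of some single genes are not reported here.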

Additional observations from a re-analysis of the deposited data

How the results depend on the processing

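With all 4 libraries, no member was called under any alternative tried, and the members' median log2 fold change stayed negative, at -0.122 in the edgeR fit and -0.0546 with the authors' TPM. With 1 library left out, edgeR called 0 to 58 members and 8 to 8421 genes in all, and the members' median was -0.291 to 0.0867. Without scramble replicate 1, 58 members were called (61 by DESeq2, with 5349 genes in all), and without scramble replicate 2, 1 (1 by DESeq2, with 1107 genes in all), where the DESeq2 median was 0.076, against -0.298 without scramble replicate 1. Without a miR-146a-5p library, DESeq2 called 0 members and 2 genes in all for either library. Members with both miR-146a-5p libraries above the scramble libraries numbered 3 to 46, and those below 4 to 71, with 1 library left out. The 46 were those above scramble replicate 1, beside 40.8% of tested genes, and the 71 those below scramble replicate 2, beside 45.6%. For the counts without a miR-146a-5p library, no share over all genes was taken. With all 4 libraries, the counts above and below were 0 and 11 with DESeq2 size factors, beside 16.6% and 21.0% of tested genes. With the authors' TPM they were 8 and 14, beside 18.8% and 19.1%, and the summed difference from scramble replicate 2 was -0.085. DESeq2 called 52 genes in all with 4 libraries. Fits with 1 library left out take their spread from the remaining pair alone, so their calls do not test the groups.

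With the replicate number as a block, edgeR called 0 members and 5 genes in all, and the members' median was -0.104. The numbers are not known to pair the samples, and the deviations of replicate 1 from the group means had a correlation of -0.145 over 14810 genes. The replicate block gave 0.00261 for RPL36A and 0.00691 for RPS25.

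Alternatives added after seeing the data were the removal of coding GC and length trends, the sum of each member with its copies, DESeq2 with a library left out, and TMM factors for the separations. With GC and length trends removed, the members' median was -0.123, with 73 members negative and 4 positive, beside -0.057 over all genes of that fit. In it the sign changed for RPL17 (-0.107), RPL21 (-0.181), RPL39 (-0.109), RPL7 (-0.0421), RPS14 (0.0157), RPS27A (-0.232) and RPS3A (-0.105). Among members that kept their sign, RPL5 moved from -0.195 to -0.491, RPL9 from -0.0672 to -0.343, RPL22 from -0.0384 to -0.236, RPL13 from -0.407 to -0.231 and RPS28 from -0.252 to -0.0707. The sign also changed for RPL36A with copies added (0.0438), for RPL36A (0.00259) and RPS25 (0.00666) with limma-voom, and for RPS27A with DESeq2 size factors (-0.00704) and the DESeq2 test (-0.012). The log2 fold changes of 27 named members changed sign when 1 library was left out. They ran from -0.183 to 0.0916 for RPL10, -0.209 to 0.0977 for RPL11, -0.715 to 0.00115 for RPL13, -0.00181 to 0.12 for RPL17, -0.0918 to 0.0326 for RPL22, -0.291 to 0.0589 for RPL3 and -0.277 to 0.211 for RPL30. The next ran from -0.458 to 0.188 for RPL32, -0.397 to 0.211 for RPL35, -0.661 to 0.114 for RPL36, -0.157 to 0.18 for RPL36A, -0.1 to 0.216 for RPL39, -0.269 to 0.123 for RPL41 and -0.207 to 0.103 for RPL9. Those of the others ran from -0.588 to 0.0438 for RPLP1, -0.525 to 0.0799 for RPLP2, -0.197 to 0.0885 for RPS14, -0.414 to 0.0999 for RPS19, -0.509 to 0.0015 for RPS2, -0.17 to 0.199 for RPS25 and -0.288 to 0.251 for RPS27, and from -0.064 to 0.0943 for RPS27A, -0.525 to 0.103 for RPS28, -0.647 to 0.0724 for RPS29, -0.425 to 0.0244 for RPS3, -0.335 to 0.0523 for RPS6 and -0.267 to 0.0758 for RPSA. Of the 37 named members, 24 changed sign without scramble replicate 2 and 2 without scramble replicate 1. Without miR-146a-5p replicate 1, 4 changed sign, and without miR-146a-5p replicate 2, 3 did. The cause of these changes was not tested.

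With 2 libraries per group, the precision is set by the spread between libraries and not by depth, since members had 50.3 CPM or more in every library.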
